A study of Homo sapiens with 6 samples.

Results

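The granulosa and Sertoli fate transcription factors are 10 genes out of the 58336 listed in the gene tables. They are SOX9, SOX8, DMRT1, WT1, GATA4, GATA6, LHX9, EMX2, IRX3 and IRX5. They were taken as named genes, and each matched 1 Ensembl gene ID by its GENCODE symbol. RNA was sequenced from KGN, a human granulosa cell line derived from an ovarian tumour, which carries the C134W change in 1 copy of FOXL2. The 3 WT/C134W libraries (3.11, 44b and 3.11-44b) kept this change, and in the 3 WT/WT libraries (44a, 4.72 and 4.72-44a) it had been reverted by CRISPR/Cas9. All were grown in serum, and the cells had been transfected 30 h before RNA extraction, with what agent and nucleic acid is not stated. The third library of each genotype carries the names of the other clones joined together and may be a mix, so the genotypes were compared over the 4 libraries that name 1 clone, 2 per genotype. An edit is recorded for the WT/WT libraries alone, so genotype and editing cannot be told apart, and the p-values measure the spread between these clones.

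The gonad of both sexes starts as a shared ridge of somatic cells, in which WT1, GATA4, EMX2 and LHX9 are needed for the ridge to form in mice. In the testis SOX9, with SOX8 and DMRT1, directs the supporting cells to become Sertoli cells. In the ovary FOXL2 keeps the supporting cells as granulosa cells, and in adult mice its loss allows SOX9 to be switched on. GATA4 and GATA6 are zinc finger factors of granulosa cells, and IRX3 and IRX5 are linked homeobox genes that act in pregranulosa and granulosa cells of the mouse ovary.

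Of the 10 factors, 5 were detected and 5 were listed at a count of 0 in every library. IRX3, IRX5, LHX9 and GATA6 stood at lower levels in the WT/C134W clones than in the WT/WT clones, and SOX9 stood at a higher level. None of these differences passed the test across all genes. SOX8, DMRT1, WT1, GATA4 and EMX2 were listed at 0 in WT/C134W and WT/WT alike, so no fold change can be given for them.

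Summed expected counts (RSEM's estimate of reads per gene) ran from 35332727 to 46613068 per library, at which 3 counts equal 0.0644 to 0.0849 CPM (counts scaled to a common library size). FOXL2 itself had 5.25 and 5.48 TPM (abundance scaled by gene length and to a common sum) in 3.11 and 44b, against 3.70 and 2.36 TPM in 44a and 4.72, with a log2 fold change of 0.67 ± 0.34. A gene count does not show the allele and so does not check the genotype. Clones of 1 genotype lay about as far apart as clones of different genotypes. The root mean square difference in log2 CPM over tested genes was 0.70 between 3.11 and 44b and 0.68 between 44a and 4.72, against 0.60 to 0.86 across genotypes. Of the 11 granulosa markers listed, 4 reached a mean of 1 TPM (FOXL2, FST, NR5A1 and HSD17B1), while FSHR and AMHR2 were at 0, so the label of a granulosa line holds for part of the list. The summed level of these 11 genes was 67.3 to 128 TPM in WT/C134W libraries and 135 to 156 TPM in WT/WT libraries. FST carried most of it, and without FST the sums overlapped, at 25.6 to 31.1 TPM in WT/C134W and 28.3 to 31.0 TPM in WT/WT. The 9 Sertoli markers, SOX9 included, summed to 39.1 to 65.2 TPM in WT/C134W and 29.2 to 37.0 TPM in WT/WT, with FGF9 and DMRT1 at 0. AMH was the largest part of this sum and overlapped between the genotypes. It had 18.01 TPM in 3.11, 44.4 in 44b and 42.4 in 3.11-44b, against 20.5 to 23.9 TPM in WT/WT libraries. SOX9, itself a factor of the focus, added 7.49 to 13.1 TPM to the sum in WT/C134W and 2.60 to 6.48 TPM in WT/WT libraries. The 7 stromal markers, led by COL1A1, summed to 4628 to 5400 TPM in WT/C134W against 8129 to 10043 TPM in WT/WT. COL1A1 alone averaged 6044 TPM over the 4 single clones, so the sum mostly follows this gene. Of the 7 log2 fold changes 5 were negative, with 49.4% of all genes tested below 0. PDGFRA (0.41 ± 0.34) and TCF21 (1.92 ± 1.33) were positive. Germ cell and endothelial markers summed to at most 3.06 and 5.17 TPM in any library. Other sets were not near 0. Theca and Leydig markers summed to 43.6 to 71.2 TPM, led by NR2F2, and leukocyte markers to 93.5 to 106 TPM, led by CD68. Epithelial markers, led by KRT18, summed to 451 to 1523 TPM. The part of these lists in the values below was not tested.

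The TPM values set the order of the detected factors. Averaged over the 4 single clones, IRX3 came first at 26.1 TPM, then IRX5 at 20.5, LHX9 at 16.8, SOX9 at 7.42 and GATA6 at 3.70 TPM. IRX3 exceeded 76.2% of the protein-coding genes, IRX5 72.3%, LHX9 68.8%, SOX9 56.4% and GATA6 49.1%. These shares include the 22.4% of protein-coding genes at 0 in all 6 libraries. The ranges of IRX3, IRX5 and LHX9 overlapped over the 4 clones, as did those of SOX9 and GATA6. Within a library, IRX5 exceeded LHX9 in all 6, while IRX3 was below IRX5 in 44b and SOX9 was below GATA6 in 4.72 and 4.72-44a. The lowest value of LHX9, 11.8 TPM, also lay below the highest of SOX9, 13.1 TPM. In the clone 44b SOX9 came within 1 TPM of IRX3 (13.1 and 13.9 TPM), whereas in 4.72 it stood at 2.60 against 34.9 TPM. The plot of TPM by library shows these levels.

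**Figure D1:**
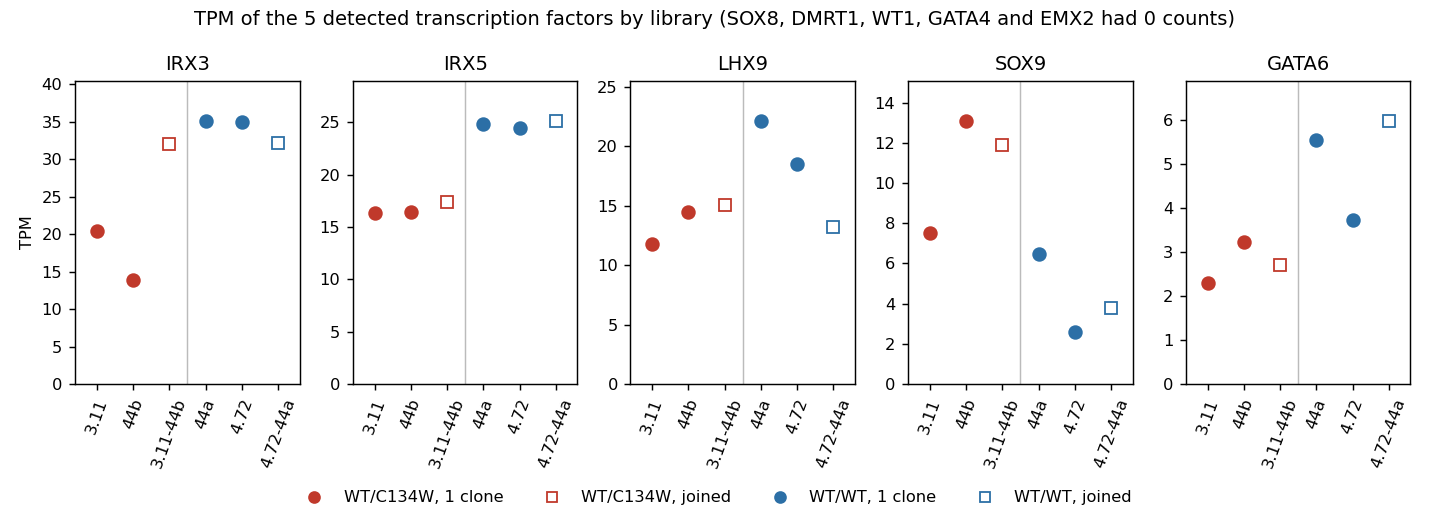
TPM (vertical axis, from 0, scaled per gene) of the 5 detected factors in each library, with filled circles for libraries of 1 clone and open squares for the joined libraries, WT/C134W in red and WT/WT in blue. SOX9 is the 1 factor whose red points all lie above the blue ones, between 7.49 and 13.1 TPM.

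IRX3 (ENSG00000177508, chromosome 16, 54283304 to 54286763 on the minus strand, GRCh38) encodes an Iroquois homeobox factor. It had 20.4 and 13.9 TPM in 3.11 and 44b, against 35.2 and 34.9 TPM in 44a and 4.72. The WT/WT clones were nearly equal, and both WT/C134W clones were below them. On the scale of TMM-normalised counts these were 25.9 and 19.2 CPM against 45.4 and 47.7 CPM. The mean was 22.5 ± 4.74 CPM in WT/C134W and 46.5 ± 1.61 CPM in WT/WT (SD, n = 2 each). Dividing WT/C134W by WT/WT gave a log2 fold change of -1.05 ± 0.21 (SE), a ratio of 0.483, with an unadjusted p of 0.00257 in edgeR's quasi-likelihood test. By p it ranked 81st of 16416 genes, and its Benjamini-Hochberg adjusted p in edgeR was 0.521. The joined library 3.11-44b held 28.6 CPM, above both of its named clones, and 4.72-44a held 47.4 CPM. In TPM the joined libraries could not be told apart, at 32.1 TPM in both. RSEM gave IRX3 an effective length (the length open to a read start, weighted by transcript) of 1344 bases in 3.11-44b, against 1965 in 3.11 and 2048 in 44b, and TPM divides by it.

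IRX5 (ENSG00000176842, chromosome 16, 54930862 to 54934485 on the plus strand) lies 644098 bases beyond IRX3 in the same Iroquois cluster. It had 16.3 and 16.4 TPM in 3.11 and 44b, against 24.8 and 24.4 TPM in 44a and 4.72. Clones of the same genotype nearly coincided in TPM and the genotypes did not overlap. The mean was 22.5 ± 1.34 CPM in WT/C134W and 36.0 ± 3.02 CPM in WT/WT (SD, n = 2 each). The log2 fold change was -0.68 ± 0.17 (SE), with an unadjusted p of 0.00876 and an adjusted p of 0.593 in edgeR's test. The joined libraries stood at 20.4 CPM (3.11-44b) and 39.5 CPM (4.72-44a), each just outside the range of its 2 clones and away from the other genotype. The stretch of letters that both transcripts share bears on these values, because RSEM divides reads that fit both genes. In GENCODE 29 the longest identical stretch of the 2 genes lies within the coding sequence, at chr16:54285321-54285454 in IRX3 (minus strand) and chr16:54932633-54932766 in IRX5 (plus strand). The 2 transcripts are printed below 5′ to 3′ with the shared bases in capitals and 13 bases on either side in lower case.
IRX3: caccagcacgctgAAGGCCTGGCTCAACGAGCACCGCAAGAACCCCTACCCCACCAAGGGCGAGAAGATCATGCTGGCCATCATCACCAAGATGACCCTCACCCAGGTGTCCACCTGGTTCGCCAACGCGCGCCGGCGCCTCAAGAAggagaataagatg
IRX5: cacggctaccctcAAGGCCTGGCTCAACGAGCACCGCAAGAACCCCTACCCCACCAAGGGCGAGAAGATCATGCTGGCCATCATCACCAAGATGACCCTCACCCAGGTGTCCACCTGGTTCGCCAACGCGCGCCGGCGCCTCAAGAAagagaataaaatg

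The counts of both genes carry the mark of this sharing. IRX3 had 1068.67 expected counts and IRX5 890.33 in 3.11, and the fractions completed each other to a whole sum, to within 0.01, in every library but 44a, where both counts were already whole. The sum does not depend on how shared reads were divided. It was 47.4 and 42.6 CPM in 3.11 and 44b and 49.0 CPM in 3.11-44b, against 79.3 and 85.9 CPM in 44a and 4.72 and 87.0 CPM in 4.72-44a. Both WT/C134W clones lay below both WT/WT clones, and each joined library, which may be a mix of its clones, stood on their side. The spread within a genotype thus rests on 2 clones. Of all single genes tested, 25.9% did not overlap between genotypes over the 6 libraries in CPM. Fitted as 1 gene, a choice made after seeing the data, the sum had a log2 fold change of -0.88 ± 0.16 (SE), with an unadjusted p of 0.00158 and an adjusted p of 0.488 in edgeR. The split between the genes was less steady. The ratio of IRX3 to IRX5 in CPM was 1.20 in 3.11, 0.817 in 44b and 1.40 in 3.11-44b, against 1.34, 1.25 and 1.20 in 44a, 4.72 and 4.72-44a. An RNA on the opposite strand, AC018553.2, overlaps 1160 bases of IRX3 and held 52.0 to 122 counts per library.

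**Figure D2:**
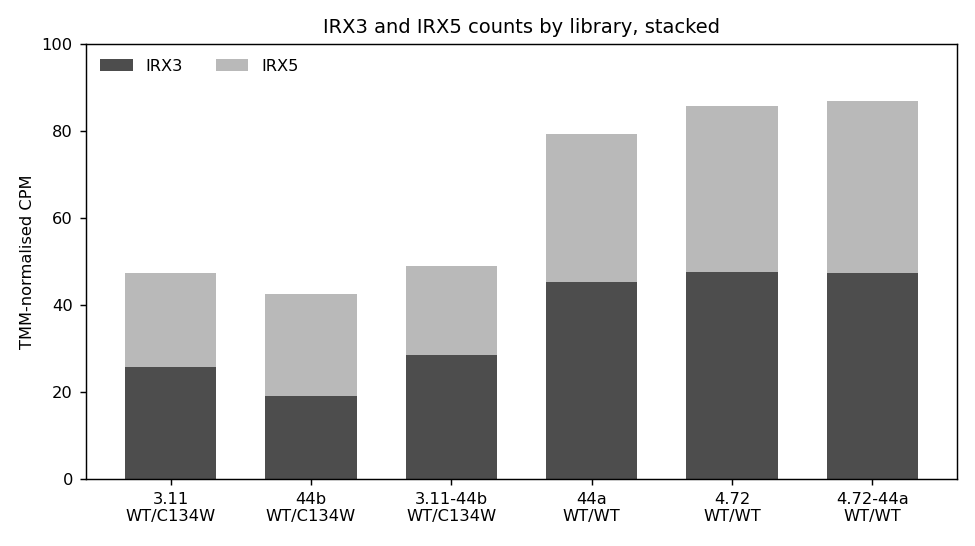
TMM-normalised CPM (vertical axis) of IRX3 (dark) and IRX5 (light), stacked for each library. The 3 WT/C134W stacks reach 42.6 to 49.0 CPM and the 3 WT/WT stacks 79.3 to 87.0 CPM.

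The 5 listed neighbours of the Iroquois cluster were named after their values were seen. CRNDE is a long noncoding RNA whose highest annotated coordinate lies 1672 bases below the start of IRX5. It had 38.1 and 28.7 TPM in 3.11 and 44b, against 28.2 and 27.8 TPM in 44a and 4.72, and a log2 fold change of 0.08 ± 0.27. FTO, an RNA demethylase gene whose introns hold enhancers of IRX3, had a log2 fold change of -0.05 ± 0.17. RPGRIP1L, a ciliary gene beside FTO, had 0.38 ± 0.23, with 15.2 and 9.82 TPM in 3.11 and 44b against 9.32 and 10.7 TPM in 44a and 4.72. CHD9, a chromatin remodeller gene, had 0.17 ± 0.15. RPGRIP1L and CHD9 were higher in both WT/C134W clones in CPM, and neither passed the test in edgeR. Among all genes tested, 19.9% lay higher and 19.7% lower in this way. Of the 16 tested neighbours of all 10 loci, 2 lay higher and 5 lower. IRX6, the third gene of the cluster, was at 0 in every library.

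LHX9 (ENSG00000143355, chromosome 1, 197911902 to 197935478 on the plus strand) encodes a LIM homeobox factor of the early gonad. It had 11.8 and 14.5 TPM in 3.11 and 44b, against 22.2 and 18.5 TPM in 44a and 4.72. Both WT/C134W clones were below both WT/WT clones, and the gap between the nearest clones was 14.5 to 18.5 TPM. The mean was 19.9 ± 4.60 CPM in WT/C134W and 35.5 ± 4.25 CPM in WT/WT (SD, n = 2 each). The log2 fold change was -0.84 ± 0.23 (SE), with an unadjusted p of 0.0115 and an adjusted p of 0.593 in edgeR's test. The joined library 3.11-44b held 21.7 CPM, between its clones. The joined library 4.72-44a held 26.7 CPM, below both 44a (38.6 CPM) and 4.72 (32.5 CPM), and in TPM it overlapped the WT/C134W libraries at 13.2 TPM, where its effective length was the highest of the 6 (2786 bases).

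GATA6 (ENSG00000141448, chromosome 18, 22169443 to 22202528 on the plus strand) was the 1 GATA factor among the 10 with counts above 0. It had 2.29 and 3.22 TPM in 3.11 and 44b, against 5.55 and 3.73 TPM in 44a and 4.72. The genotypes did not overlap, but 44b and 4.72 were close to each other. The mean was 5.14 ± 1.31 CPM in WT/C134W and 9.43 ± 2.64 CPM in WT/WT (SD, n = 2 each). The log2 fold change was -0.88 ± 0.38 (SE), with an unadjusted p of 0.063 and an adjusted p of 0.684 in edgeR's test. It was -0.58 without 44a. Both joined libraries lay between their clones in CPM, at 5.82 CPM in 3.11-44b and 10.4 CPM in 4.72-44a. The antisense RNA GATA6-AS1, which overlaps 436 bases of GATA6, held at most 18 counts, fewer than the lowest GATA6 count of 174.

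SOX9 (ENSG00000125398, chromosome 17, 72121020 to 72126420 on the plus strand), the HMG box factor that drives Sertoli fate, was the 1 detected factor with a positive fold change. It had 7.49 and 13.1 TPM in 3.11 and 44b, against 6.48 and 2.60 TPM in 44a and 4.72. The order was 44b, 3.11, 44a and 4.72, and 3.11 and 44a were close together. In CPM 3.11 had 18.1 and 44a had 17.7, from 749 and 782 counts. The mean was 25.7 ± 10.7 CPM in WT/C134W and 12.5 ± 7.40 CPM in WT/WT (SD, n = 2 each). The log2 fold change was 1.04 ± 0.52 (SE), a ratio of 2.05, with an unadjusted p of 0.102 and an adjusted p of 0.726 in edgeR's test. The clones of 1 genotype differed as much as the genotypes did, with 44b at 1.83 times 3.11 and 44a at 2.44 times 4.72 in CPM. Without 44b the log2 fold change was 0.53 and without 4.72 it was 0.54, while without 44a it was 1.80. The joined libraries lay between their clones, at 29.8 CPM in 3.11-44b and 10.3 CPM in 4.72-44a.

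SOX8 is the close relative of SOX9 that acts beside it in Sertoli cells, and it had 0 counts in every library. The 2 genes share a longest identical stretch of 37 coding bases, at chr17:72121780-72121816 in SOX9 and chr16:982302-982338 in SOX8, both on the plus strand. It is printed with the shared bases in capitals, because it shows where reads of the 2 genes could be confused.
SOX9: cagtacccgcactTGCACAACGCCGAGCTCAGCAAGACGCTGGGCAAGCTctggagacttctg
SOX8: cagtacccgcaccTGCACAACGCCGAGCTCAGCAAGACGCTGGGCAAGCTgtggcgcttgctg
Of the 4870 reads given to SOX9 over the 6 libraries, all were whole counts and none was assigned to SOX8.

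DMRT1, a DM domain factor that maintains Sertoli fate in mice, WT1, a zinc finger factor of the gonad and kidney, GATA4 and EMX2, a homeobox factor of the urogenital ridge, also had 0 counts in all 6 libraries. A count of 0 allows up to 3 counts, or up to 0.0849 CPM in the shallowest library, and this covers counting error only, since reads without molecular identifiers are not independent molecules. Zeros were common and low counts rare in these tables. Of 19863 protein-coding genes, 4453 (22.4%) were at 0 in all 6 libraries. Single libraries held 5578 to 6636 protein-coding genes at 0, but 89 to 811 with above 0 to 3 counts and 371 to 840 with above 3 to 10. In 3.11 and 44a, with 89 and 92 such genes, low counts were rarest. A transcript present at a few copies may therefore be listed at 0, and its absence is not shown. The antisense RNAs WT1-AS and EMX2OS, named after their values were seen, were at 0 as well. So were DMRT2 and DMRT3, which lie beside DMRT1 on chromosome 9.

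Both WT/C134W clones lay below both WT/WT clones in CPM for 4 of the 5 tested factors and above them for 1, SOX9. Among all 16416 genes tested, 19.7% lay below and 19.9% above in this way, 39.6% in either direction. IRX3, IRX5 and LHX9, 3 of the 5, had an unadjusted p under 0.05 in edgeR, against 7.57% of all genes (2.88% higher and 4.7% lower in WT/C134W). An adjusted p under 0.05 was reached by 0 of the 5 and by 0% of all genes. The median log2 fold change of the 5 was -0.84, against 0.01 over all genes tested, of which 49.4% were below 0. A value at or below that of IRX5 was found for 10.6% of all genes. The other 5 factors passed no filter on low counts and enter none of these figures. The factors were chosen with earlier results of these data known, so the shares over all genes are a description and no test of the set. IRX3 and IRX5 lie in 1 cluster and share reads, so they are not separate results. Scaled by library totals alone, the median over all genes was 0.23, the 4 negative values lay between -0.82 for IRX3 and -0.46 for IRX5, and SOX9 had 1.24. Over 6 libraries, all 5 factors were without overlap between genotypes in CPM. The share of all genes without overlap was 25.9% (12% higher and 13.9% lower in WT/C134W). The joined libraries may not be separate clones, however. A fit that took them as such called IRX3 (adjusted p = 0.024) and IRX5 (adjusted p = 0.0181) in edgeR, with 3.18% of all genes. DESeq2 on the 4 single clones called IRX3 (adjusted p = 0.00776), with 1.83% of all genes. Without the filter on low counts edgeR called IRX3 (adjusted p = 0.000324), SOX9 (adjusted p = 0.00848) and LHX9 (adjusted p = 0.0184), with 2.73% of all genes.

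**Figure D3:**
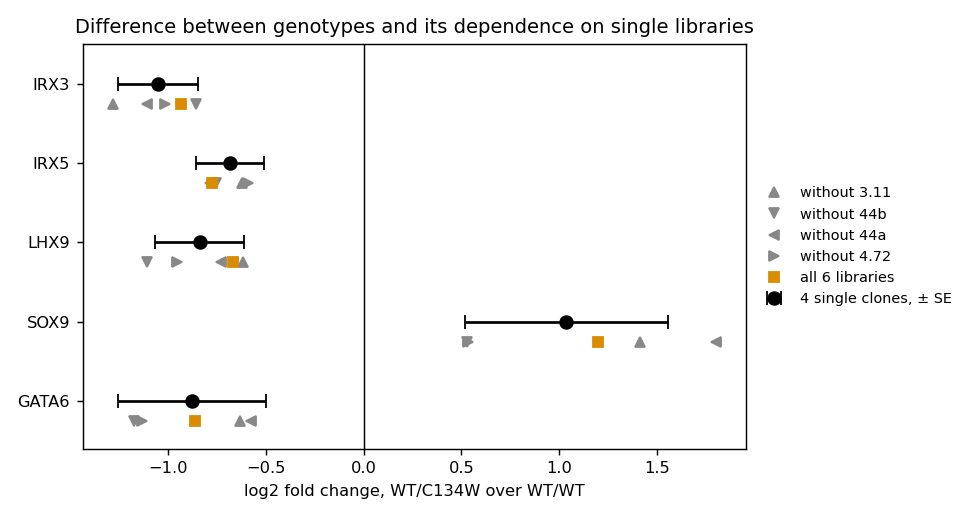
Difference on the log2 scale (horizontal axis, positive where WT/C134W is higher than WT/WT) of the 5 tested factors. Black points with bars give the value ± SE from the 4 single clones, grey triangles the value with 1 clone left out and orange squares that from all 6 libraries; SOX9 moves between 0.53 and 1.80.

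Promoter sequences (GRCh38.p14, RefSeq) were matched for 5 of the 10 factors, LHX9, DMRT1, EMX2, WT1 and GATA6, with 10 annotated starts. They are 300 bases long, from 250 before to 50 after the start. Both strands were searched for 5 short motifs. The FOXL2 response element was written as GTCAAGG, and the core of forkhead factors in general as TAAACA. The letters for zinc finger factors of the GATA family were AGATAA, and those for SOX factors were AACAAT. The AP-1 site was written as TGACTCA, and no match of 1 motif overlapped one of another. The forkhead letters, found in 12.3% of all 35116 promoters, were in GATA6, in EMX2 and at 1 of the 4 starts of WT1. The AP-1 letters (4.95% of promoters) were at the same WT1 start. No window of LHX9 or DMRT1 held any of these motifs. The FOXL2 element (3.06% of promoters), the SOX letters (10.1%) and the zinc finger letters (10.3%) were in none of the 10 windows. GATA6 had counts in every library, and EMX2 was listed at 0. They are shown because both hold TGTTTA, the reverse complement of the forkhead core, printed in capitals. The first start of LHX9, which had no match, is set beside them. The windows are chr18:22169339-22169638 for GATA6, chr10:117542496-117542795 for EMX2 and chr1:197912214-197912513 for LHX9, all on the plus strand.
GATA6: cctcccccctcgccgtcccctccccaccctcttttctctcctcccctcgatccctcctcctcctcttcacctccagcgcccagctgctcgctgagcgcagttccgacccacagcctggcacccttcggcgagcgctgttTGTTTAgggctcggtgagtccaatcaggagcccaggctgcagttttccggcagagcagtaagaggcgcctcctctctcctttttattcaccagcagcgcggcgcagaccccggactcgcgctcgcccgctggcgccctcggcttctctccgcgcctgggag
EMX2: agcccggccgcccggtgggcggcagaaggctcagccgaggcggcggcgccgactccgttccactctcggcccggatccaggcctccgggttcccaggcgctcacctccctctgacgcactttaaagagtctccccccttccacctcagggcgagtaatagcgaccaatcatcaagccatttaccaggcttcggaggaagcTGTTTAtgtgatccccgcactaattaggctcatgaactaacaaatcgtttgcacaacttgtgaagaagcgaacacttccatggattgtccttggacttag
LHX9: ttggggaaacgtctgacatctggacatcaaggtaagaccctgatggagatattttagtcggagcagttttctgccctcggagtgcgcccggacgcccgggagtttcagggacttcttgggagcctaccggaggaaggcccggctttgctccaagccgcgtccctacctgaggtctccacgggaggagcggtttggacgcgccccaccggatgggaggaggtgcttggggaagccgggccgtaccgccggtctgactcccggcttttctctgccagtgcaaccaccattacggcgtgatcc
The content of G and C was 66.7% for GATA6, 58.0% for EMX2 and 62.0% for LHX9, against a median of 58.7% over all promoters. These windows hold 25, 21 and 23 CpG dinucleotides, in the same order, against a median of 14.

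Of 42 listed paralogues of the 10 factors, 21 were at 0 in all 6 libraries and 10 reached a mean of 1 TPM. Among those at 0, chosen after their values were seen, were IRX1, IRX2, IRX4, GATA1 and GATA5. Other GATA genes had counts, with GATA2 at a mean of 2.07 TPM and GATA3 at 0.25 TPM over the 4 single clones. The SOX genes with the highest levels after SOX9 were SOX13, at 6.14 and 4.03 TPM in 3.11 and 44b against 3.45 and 3.31 TPM in 44a and 4.72, SOX4 and SOX12. SOX4, a SOX factor of the early gonad, had 3.64 and 6.26 TPM against 4.77 and 1.84 TPM in the same clones, an order in which 44b was highest and 4.72 lowest, as for SOX9. EGR1, an immediate early zinc finger factor related to WT1, had 7.98 and 9.37 TPM in 3.11 and 44b against 22.5 and 34.6 TPM in 44a and 4.72, and EGR3 had 0 and 0.19 TPM in 3.11 and 44b against 0.58 and 1.34 TPM in 44a and 4.72. Their log2 fold changes were -1.88 ± 0.27 and -4.01 ± 1.55. Of the 15 paralogues tested 10 had a negative value, with a median of -0.46. EGR1, EGR2 and EGR3, 3 of the 15, had an unadjusted p under 0.05 in edgeR, all lower in WT/C134W. The share over all genes tested was 7.57%, with 4.7% lower and 2.88% higher in WT/C134W. None passed the adjusted threshold in edgeR.

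Other genes of the bipotential gonad were tested in 20 of 25 cases, 11 with a negative value and 9 with a positive one, at a median of -0.06. NR5A1, the nuclear receptor that with GATA4 and WT1 switches on gonadal genes, had 21.2 and 21.7 TPM in 3.11 and 44b against 22.8 and 26.7 TPM in 44a and 4.72. CITED2, a cofactor of WT1 in mice, had 172 and 301 TPM in 3.11 and 44b against 370.2 and 514 TPM in 44a and 4.72, with means of 236 ± 90.8 and 442 ± 101 TPM (SD, n = 2 each). PAX8, a paired box factor of the kidney and Müllerian duct, and IGF1R, a receptor that testis formation requires together with the insulin receptor in mice, had log2 fold changes of -0.83 ± 0.23 and -0.98 ± 0.21. NR2F2, a nuclear receptor of theca and interstitial cells, overlapped between the genotypes at 62.6 and 50.9 TPM in 3.11 and 44b against 41.1 and 69.4 TPM in 44a and 4.72. With CITED2, PAX8 and IGF1R, 3 of the 20 tested genes had an unadjusted p under 0.05 in edgeR, all lower in WT/C134W, and 0 an adjusted one. Among all genes tested, 7.57% had such an unadjusted p, 4.7% lower and 2.88% higher in WT/C134W.

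On the Sertoli side, 15 of 27 listed genes were tested, 7 with a negative and 8 with a positive value, at a median of 0.07. An unadjusted p under 0.05 in edgeR was found for 2 of the 15, both lower in WT/C134W. The share over all genes tested was 7.57%, with 4.7% lower and 2.88% higher. The 2 genes were PDGFB, a growth factor chain (log2 fold change -2.81 ± 0.88), and INHBB, an inhibin and activin subunit (-1.14 ± 0.41). TRIM28, a corepressor that guards ovarian fate in adult mice, is in this list although it acts against Sertoli fate. The counts by direction and the median therefore do not measure Sertoli fate. TRIM28 had 409 and 411 TPM in 3.11 and 44b against 419 and 354 TPM in 44a and 4.72. CLU, ETV5 and PDGFA had log2 fold changes of -0.16, 0.15 and -0.56. AMH, the Sertoli and granulosa hormone whose promoter SOX9 binds, was named after its values were seen. It had 18.01 and 44.4 TPM in 3.11 and 44b against 23.9 and 20.5 TPM in 44a and 4.72, so that 44b stood highest, as for SOX9, and 3.11 lowest. On the granulosa side, 16 of 25 were tested, 10 with a negative and 6 with a positive value, at a median of -0.18. INHBA, the activin A subunit, had 23.7 and 42.5 TPM in 3.11 and 44b against 62.1 and 51.4 TPM in 44a and 4.72. FOXO3, a forkhead factor, had a log2 fold change of -0.38 ± 0.15. INHBA and FOXO3 were the 2 of 16 tested genes with an unadjusted p under 0.05 in edgeR, again beside 7.57% of all genes. FST, an activin antagonist and target of FOXL2, had 40.4 and 96.8 TPM in 3.11 and 44b against 105 and 125 TPM in 44a and 4.72, while CTNNB1 and NRG1 had log2 fold changes of 0.03 and -0.34. No gene of either list passed the adjusted threshold in edgeR.

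Of 30 genes described as targets of the factors, 11 were at 0 and 10 were tested, 7 with a negative value and a median of -0.39. COL10A1, a collagen of cartilage, had 293 and 152 TPM in 3.11 and 44b against 504 and 542 TPM in 44a and 4.72, a log2 fold change of -1.55 ± 0.31. SPRY1, a WT1 target in the kidney that dampens growth factor signals, had -1.12 ± 0.45. PODXL, a WT1 target in podocytes, and BMP4 had values of -0.19 and 0.39. COL2A1 and COL9A1, cartilage targets of SOX9 named after their values were seen, stood at 0 in all 4 single clones. ACAN, the cartilage proteoglycan gene and likewise a SOX9 target, had 0.21 and 0.07 TPM in 3.11 and 44b against 0.30 and 13.5 TPM in 44a and 4.72. Its log2 fold change of -5.47 ± 2.02 went with the high value of 4.72, the clone lowest in SOX9. COL11A2, also a cartilage target, averaged 0.735 TPM and had -0.22 ± 0.74. Of 25 neighbours of the 10 loci, 16 were tested, 9 with a negative value and a median of -0.05. NEK7, which neighbours LHX9, had 96.9 and 118 TPM in 3.11 and 44b against 122 and 170.3 TPM in 44a and 4.72, a log2 fold change of -0.47 ± 0.16. CTSB, RCN1 and EIF3M had values of -0.39, -0.08 and 0.14. In neither list did a gene pass the adjusted threshold in edgeR.

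**Figure D4:**
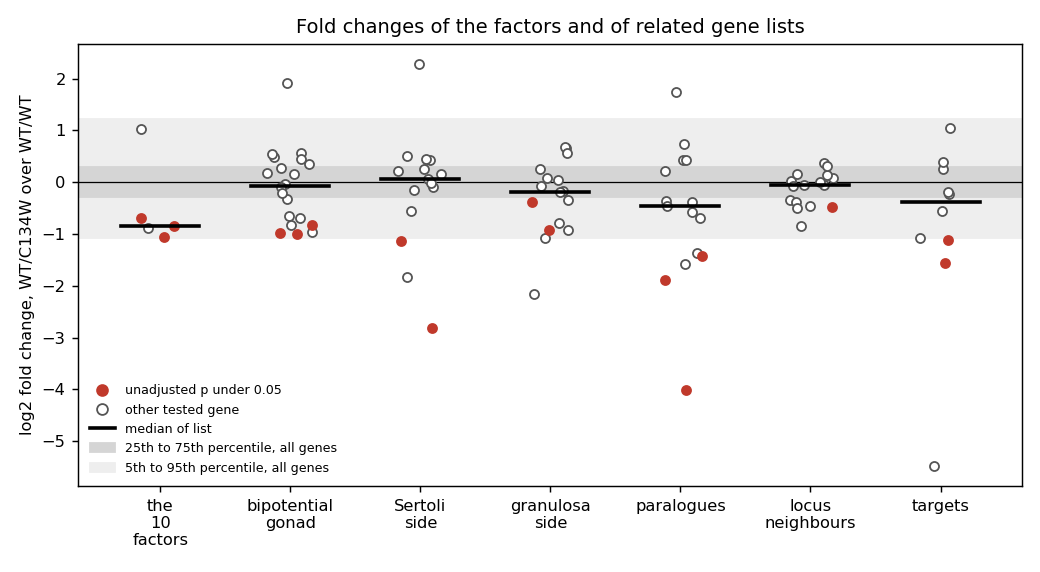
Difference on the log2 scale (vertical axis, positive where WT/C134W is higher than WT/WT) of each tested gene of the 10 factors and of 6 related lists, with red points for an unadjusted p under 0.05, black lines for the list medians and grey bands for the percentiles of all 16416 genes tested. The medians run from -0.84 for the factors to 0.07 for the Sertoli side, and every red point lies below 0. Of all genes tested, 4.7% had such a p and a value below 0, and 2.88% had one and a value above 0.

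The genes with the most similar pattern were sought for the 3 factors that ranged most widely over the 4 single clones (SOX9, GATA6 and IRX3), as the smallest root mean square difference of centred log2 CPM. Many genes come close over so few clones, which share their genotype and library preparation. Nearest to SOX9 were GDF15 (0.10), ADAMTS5 (0.18) and LRMP (0.20). GDF15, a secreted stress factor, had 3.82 and 8.21 CPM in 3.11 and 44b against 4.67 and 1.53 CPM in 44a and 4.72. Nearest to GATA6 were ZFPM1 (0.02), DMPK (0.04) and CREB3L1 (0.05). ZFPM1, a zinc finger cofactor that binds GATA factors, had 5.15 and 7.57 CPM in 3.11 and 44b against 13.4 and 9.22 CPM in 44a and 4.72. Nearest to IRX3 were KLF5 (0.07), MMP14 (0.08) and TET3 (0.08). MMP14, a membrane-bound matrix protease, had 326 and 284 CPM in 3.11 and 44b against 635 and 644 CPM in 44a and 4.72.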

How the data were processed

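Gene tables of 6 KGN libraries were used, grouped by the genotype that each label gives. A stranded mRNA kit was used, per the labels' protocols. Tools named in the submitters' processing notes, with no role, are RSEM 1.3.1, STAR 2.7.6a, DESeq2 1.26.0, Picard 2.8.1 and R 3.6.3. The notes name the mouse build GRCm38, although the gene IDs are human. Not given in the sources used here are the human build, the annotation and whether counting used strand, so antisense overlaps are uncertain. Expected counts (RSEM's unscaled estimate, with shared reads divided), TPM (scaled by effective length to a common sum) and FPKM (not used for results) are, per the file headers, as deposited by the authors.

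Symbols and coordinates came from GENCODE 29, which held 58216 of 58336 IDs. Rounded expected counts of genes passing filterByExpr went into edgeR 4.0.16 in R 4.3.3 (TMM scaling, robust glmQLFit, glmQLFTest), on the 4 single-clone libraries, with Benjamini-Hochberg adjustment over all genes and a threshold of 0.05. For the SE, the square root of edgeR's F was taken as the absolute log2 fold change over its error. CPM values are TMM-normalised over 6 libraries. Members and lists were chosen with earlier results of these data known. All 10 members were named, and of each list the 4 genes with the highest mean TPM and the 2 with the smallest p. The likeness of patterns was computed as log2 of CPM plus 0.5, over the 11184 protein-coding genes that averaged 2 CPM or more. Alternatives were all 6 libraries, DESeq2 1.42.0, limma 3.58.1 (voom, and log2 of TPM plus 1 or 0.1), other scalings and filters, each clone left out and a block pairing 44a with 44b.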

Additional observations from a re-analysis of the deposited data

How the results depend on the processing

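Under the alternatives tried, all 77 fold changes of the 5 tested factors kept their sign, and 6 passed the adjusted threshold that the fit on 4 single clones did not. These were IRX3 with all 6 libraries, with DESeq2 and without the low-count filter, IRX5 with all 6 libraries, and SOX9 and LHX9 without the filter. The signs could hardly turn. Most alternatives refitted the same 4 libraries, in which none of the 5 factors overlapped between genotypes in CPM, so leaving 1 clone out could not reverse a sign. For SOX9, GATA6 and LHX9 the alternatives include the fit with IRX3 and IRX5 summed, which leaves their own counts unchanged. The number of genes called, 0 in edgeR on the 4 single clones (1243 at an unadjusted p under 0.05), was 511 with all 6 libraries, 277 with DESeq2, 664 without the low-count filter, 5 with a replicate block (44b with 44a, 3.11 with 4.72), and 1 with limma on log2(TPM + 0.1). It was 0 with limma voom, limma on log2(TPM + 1), other scalings, the filter of 10 CPM and each clone left out. The labels do not pair the clones. The deviations of 44a and 44b from their genotype means correlated at 0.27 across 16416 genes, and the block called none of the 5 factors. With 1 clone left out, the log2 fold change ran from 0.53 to 1.80 for SOX9, -1.17 to -0.58 for GATA6, -1.10 to -0.62 for LHX9, -1.28 to -0.86 for IRX3 and -0.78 to -0.59 for IRX5. The lone clone of a genotype is then assumed to vary like the other genotype. GATA6 could not be fitted under the filter of 10 CPM.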
